A study of Mus musculus with 12 samples.

Results

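Bhlhe40 and Bhlhe41 encode DEC1 and DEC2, a pair of transcriptional repressors of the circadian clock. Their BMAL1 binding was taken from the peaks of 6 BMAL1-ChIP-seq libraries whose midpoint lay nearer to a protein-coding start site of one of these genes than to that of any other gene. This rule selected 42 of the 35822 peaks in all libraries, 23 for Bhlhe40 and 19 for Bhlhe41. Peaks of different libraries that overlapped by at least 1 bp were merged into regions, which gave 9 of the 16818 regions of the series, 7 at Bhlhe40 and 2 at Bhlhe41.

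BMAL1-ChIP-seq was done in primary mouse adult fibroblasts (MAFs), grown from the ears of wild-type adult female mice, to compare where BMAL1 binds in control and in senescent cells. Control MAFs (n = 3) were sham irradiated and senescent MAFs (n = 3) received 20 Gy of X-rays and were kept in culture afterwards. All cells, controls included, grew in 3% oxygen, were given 100 nM dexamethasone to set their clocks to a common phase, and were collected 12 h later, so each group was seen at a single clock time. Of the 12 libraries, the 6 inputs were not analysed here. The sources used here do not say whether replicates came from separate animals or cultures, so p-values measure only the spread between libraries, which may be technical.

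In the molecular clock, BMAL1 pairs with CLOCK and binds the E-box CACGTG to activate transcription. DEC1 and DEC2 carry a basic helix-loop-helix and an Orange domain, bind E-boxes themselves, and repress genes that CLOCK and BMAL1 activate, their own genes among them. They thereby form a negative feedback loop beside that of the PER and CRY proteins. DEC1 is also known as a gene product induced by hypoxia, growth signals and DNA damage.

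Each library came as its own list of peaks with a score, called at a false discovery rate (FDR) of 1%, and the lists ran from 2794 to 10601 peaks. Depth is unknown because the lists hold no reads, and a peak missing from a list was not called, which is not the same as absent binding. Pairs of lists shared between 0.175 and 0.485 of their merged regions (Jaccard index), a measure that unequal list lengths also lower. Scores are not comparable between libraries. A peak was therefore described by its rank in its own list, where rank 1 is the highest score and a lower number is a stronger call, by that rank as a percentage of the list, and by its width. Expression cannot be read from peak lists, and the fibroblast identity of the cells could not be checked against markers.

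Both genes lie on mouse chromosome 6 (build mm10, GENCODE M21 annotation), on opposite strands and far apart. Bhlhe40 (ENSMUSG00000030103) occupies chr6:108660629-108666925 on the plus strand, and Bhlhe41 (ENSMUSG00000030256) occupies chr6:145858243-145865558 on the minus strand. Around Bhlhe40 the nearest start sites of other protein-coding genes were those of Arl8b at 122225 bp and Itpr1 at 447427 bp. Around Bhlhe41 they were those of Rassf8 at 45358 bp and Sspn at 66083 bp. Both genes had the same layout of BMAL1 peaks, with 1 region over the promoter and 1 region just past the end of the gene called in all 6 libraries. The strong region was a different one at each gene: it was the promoter at Bhlhe40 and the downstream region at Bhlhe41.

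The sequences under these 4 regions hold CACGTG or, at the downstream region of Bhlhe40, only forms of it with a single changed base. The downstream region of Bhlhe41, chr6:145855066-145856811, lies in intergenic sequence and has 4 copies of CACGTG, at 145855712, 145855865, 145855891 and 145856191. The middle pair is 26 bp apart from start to start, with 20 bases between them, and lies under the centre of the peak. It is shown here on the minus strand, the strand of the gene, from chr6:145855840-145855921, with the E-boxes in capitals.
Bhlhe41 downstream pair: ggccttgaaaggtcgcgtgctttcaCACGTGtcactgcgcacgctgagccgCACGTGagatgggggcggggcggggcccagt
In every library the midpoint of the best peak fell between 5.5 and 50.5 bp from the E-box at 145855891. A form with a single changed base, CACGCG at 145855903, lay 3.5 to 38.5 bp from these midpoints. It was also under a peak in all 6 libraries and is left in lower case above. All 4 E-boxes lay under a peak in all 6 libraries.

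The promoter region of Bhlhe41, chr6:145865223-145866976, covers the first exon and the sequence before it, and has 2 E-boxes, at 15 and 1204 bases before the start. The first is shown in the RefSeq promoter of GRCm38 up to the start site (minus strand, chr6:145865559-145865670), the second with 15 bases on each side (minus strand, chr6:145866742-145866777).
Bhlhe41 promoter, proximal E-box: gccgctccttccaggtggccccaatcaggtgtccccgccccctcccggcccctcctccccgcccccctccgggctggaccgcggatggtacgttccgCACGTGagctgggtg
Bhlhe41 promoter, distal E-box: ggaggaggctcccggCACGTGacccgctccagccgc
Both E-boxes were under a peak in all 6 libraries. Neither was at the peak's centre, since the best midpoints lay 525 to 1008 bases before the start. The midpoints of all senescent libraries were nearer to the start than those of all control libraries, where the promoter was called in several peaks. In control the best midpoint is that of a single piece, and in senescent MAFs that of the whole peak. A shift in position therefore cannot be told apart from the splitting. It was not tested, and its share over other regions was not computed. Between the E-boxes the region also had 3 copies of CACGTT, a form of the E-box with a changed last base. The copy at 1045 bases before the start lay 34.5 bp from the nearest best midpoint, in a control library, and 517.5 bp from the farthest. Other forms with a single changed base, CACGCG and CACGAG, were present in the region as well.

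The promoter region of Bhlhe40, chr6:108658912-108660836, covers the first exon and also overlaps exons of the noncoding genes Gm17055 and 0610040F04Rik, the latter antisense. Peaks give no strand, so binding there cannot be assigned among these overlapping genes. The region has E-boxes at 257 and 1186 bases before the start, a CACGTT at 453 bases and an AP-1 motif at 538 bases before it. AP-1 (FOS and JUN proteins) binds TGACTCA or its reverse complement TGAGTCA. Each motif is shown on the plus strand with 15 bases on each side, from chr6:108660357-108660392, chr6:108659428-108659463, chr6:108660161-108660196 and chr6:108660076-108660112 in this order.
Bhlhe40 promoter, proximal E-box: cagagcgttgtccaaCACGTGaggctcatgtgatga
Bhlhe40 promoter, distal E-box: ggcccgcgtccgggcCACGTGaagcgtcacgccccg
Bhlhe40 promoter, CACGTT: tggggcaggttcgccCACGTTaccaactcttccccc
Bhlhe40 promoter, AP-1: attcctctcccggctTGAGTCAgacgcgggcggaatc
All 4 motifs were under a peak in all 6 libraries. The best midpoints, 442 to 755 bases before the start, lay between the E-boxes. Over the 6 libraries they were 8.5 to 304.5 bp from the CACGTT and 53 to 220 bp from the AP-1 motif. Their distance was 187.5 to 500.5 bp from the proximal E-box and 428.5 to 741.5 bp from the distal one.

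The downstream region of Bhlhe40, chr6:108668190-108668999, was intergenic and was the only one of these 4 without a CACGTG. It had a CACGTT (plus strand, chr6:108668505-108668540) and a CACGAG, each under a peak in 5 libraries.
Bhlhe40 downstream, CACGTT: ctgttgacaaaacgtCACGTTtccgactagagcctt
No AP-1 motif was found in it or in the Bhlhe41 promoter. The Bhlhe41 downstream region had 1 AP-1 motif, at its far edge, under a peak in 2 libraries.

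Motif content was read against that of other regions. Searched on both strands, CACGTG was present in 19.9% of all regions and in 61.6% of the 1106 regions called in all 6 libraries. Of the 4 regions of the DEC genes called in all 6, 3 held it. Each of the 4 held CACGTG or at least 1 of the 3 variants searched, which were CACGTT and the forms CACGCG or else CACGAG, each with a single changed base, as did 85.3% of the regions called in all 6. Within 100 bp of the midpoint of the best peak, CACGTG was found in 1 of the 4, the downstream region of Bhlhe41, against 44.8% of the regions called in all 6. At least 4 copies, the number in the Bhlhe41 downstream region, were present in 2.35% of the regions called in all 6, and in 6.7% of those of at least 1000 bases (14 of 209). A pair of E-boxes that start at most 30 bp apart within 100 bp of the best midpoint was found in 4.7% of the regions called in all 6, and in 8.13% of the long ones. The AP-1 motif was present in 22.3% of the regions called in all 6.

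Calls in all 6 libraries were uncommon in the series. Of the 21840 protein-coding genes, 5.14% had a nearest peak in every library, and both DEC genes were among them. Of all regions, 6.58% were called in every library, and these included 2 of the 7 regions of Bhlhe40 and both regions of Bhlhe41.

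The downstream region of Bhlhe41 was among the highest-scoring peaks of every list. Its best peak ranked 23, 17 and 15 in control 1, 2 and 3 and 11, 10 and 10 in senescent 1, 2 and 3. Each senescent library thus gave it a better rank than each control library, and the mean rank went from 18.3 ± 4.16 (SD, n = 3) to 10.3 ± 0.577. The exact permutation test gave p = 0.1, the smallest value 3 against 3 libraries allow, and adjusted p = 0.278 over 1106 regions, so the difference did not pass. Ranks without overlap in this direction were seen in 17.6% of the regions called in all 6. As a percentage of the list, the rank was 0.823, 0.508 and 0.141 in control and 0.261, 0.102 and 0.198 in senescent MAFs. These groups overlapped through control 3, which has the longest list (exact permutation p = 0.3, adjusted p = 0.677).

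The place of this peak varied little. Its midpoints lay 2299 to 2360 bp past the end of Bhlhe41, a span of 61 bp over 6 libraries, while the best peaks were 1031 to 1734 bp wide. A core of 1018 bases was covered in all 6 libraries, and the region had 0 bases covered in every senescent library and no control library.

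**Figure D1:**
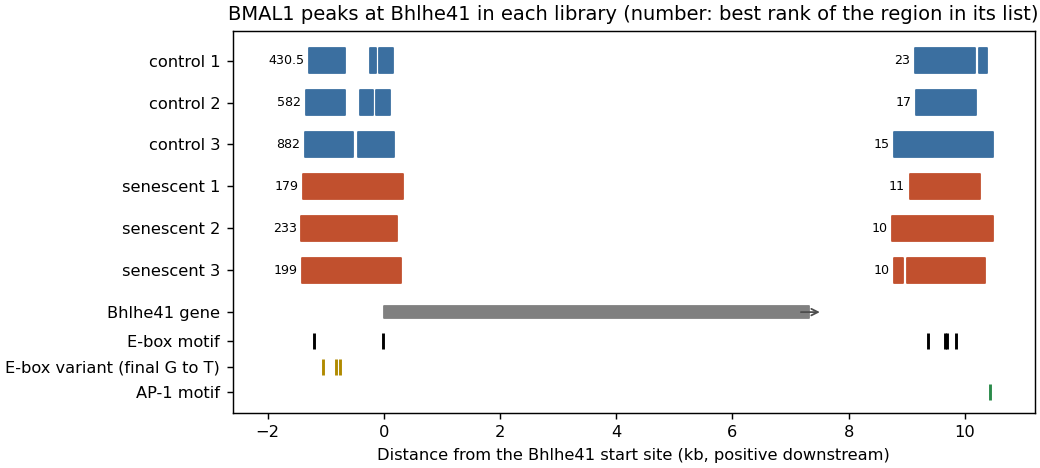
BMAL1 peaks at Bhlhe41. Bars are the peaks of each of the 6 libraries by distance from the start site in kb, positive downstream, in the direction of the gene, with the best rank of each region beside them; blue bars are control, red bars senescent, the grey bar is the gene, and ticks mark motifs. The promoter was called as 3, 3 and 2 separate peaks in control and as 1 peak in each senescent library, while the downstream region ranked 10 to 23 in every library.

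The promoter of Bhlhe41 was called differently in the 2 groups. It was split into 3, 3 and 2 peaks in control 1, 2 and 3, and formed 1 continuous peak in each senescent library. Fewer peaks in every senescent library were seen in 0.452% of the regions called in all 6, that is 5 of 1106. Only a region split into at least 2 peaks in every control library can show this. The share among such split regions was not computed, so the low figure does not make this promoter a rare case. The exact permutation test gave p = 0.1 for this region, with adjusted p = 1, so the difference did not pass.

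The peaks at the Bhlhe41 promoter covered 974, 1120 and 1424 bases in control and 1722, 1646 and 1700 bases in senescent MAFs. Coverage was 1173 ± 230 (SD, n = 3) and 1689 ± 39.1 bases, with no overlap between the groups (exact permutation p = 0.1, adjusted p = 0.301). Wider coverage in every senescent library was common, at 29.7% of the regions called in all 6. Of the region's 1754 bases, 856 were called in all 6 libraries and 190 in every senescent library and no control library. The longest stretch of the latter, 98 bases at chr6:145865998-145866095, lay between the peaks at the proximal and the distal E-box and joined them in senescent MAFs. The E-boxes themselves were called in both groups.

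The rank of the Bhlhe41 promoter differed as well. Its best peak ranked 430.5, 582 and 882 in control and 179, 233 and 199 in senescent MAFs. As a percentage of the list it stood at 15.4, 17.4 and 8.32 in control and 4.24, 2.38 and 3.94 in senescent MAFs, without overlap. The mean was 13.7 ± 4.76% (SD, n = 3) in control and 3.52 ± 1.00% in senescent MAFs (exact permutation p = 0.1, adjusted p = 0.567 over 1106 regions), and 12.9% of the regions called in all 6 had no overlap in this direction. The control libraries were also those with the promoter in several pieces, and the part of this splitting in the rank difference was not tested.

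To set list length aside, regions were also ranked only among the 1106 called in all 6 libraries. On this scale the Bhlhe41 promoter ranked 388.5, 497 and 635.5 in control and 165.5, 219 and 187 in senescent MAFs, again without overlap (exact permutation p = 0.1, adjusted p = 0.279), as did 18.0% of these regions in this direction. The ratio of the geometric mean ranks, control over senescent, was 2.63. A larger ratio was found for 5.06% of the regions, and the median over all of them was 0.983. The downstream region of Bhlhe41 had a ratio of 1.50, which 21.2% of the regions exceeded. It held rank 10 in each of the 3 senescent libraries and ranks 20, 14 and 12 in control.

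**Figure D2:**
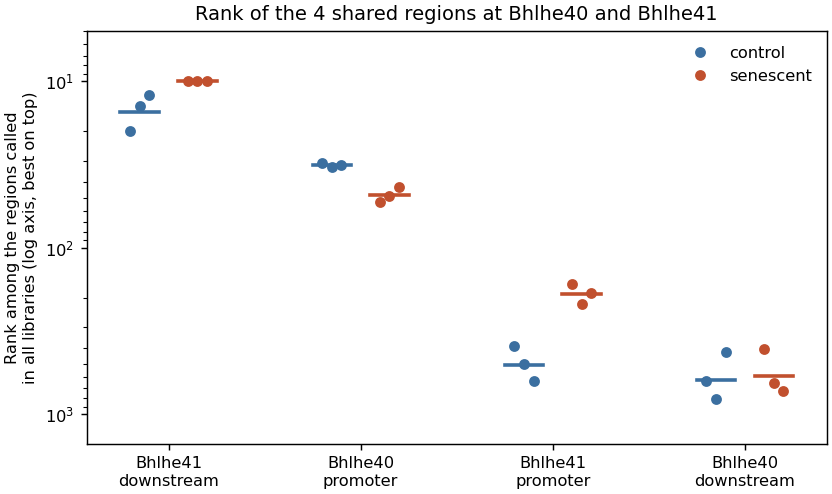
Ranks of the 4 regions called in every library. Points are single libraries, control in blue and senescent in red, and lines are group means, and the vertical axis is the rank among the 1106 regions called in all 6 libraries, on a log scale with stronger calls towards the top. The Bhlhe41 promoter moves from 388.5 to 635.5 in control up to 165.5 to 219 in senescent MAFs, while the Bhlhe40 promoter goes the other way and the Bhlhe40 downstream region overlaps.

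At Bhlhe40 the promoter carried the strongest call. It ranked 35, 37.5 and 37 in control and 55, 50 and 44 in senescent MAFs, so every senescent library gave it a weaker rank. The mean rank was 36.5 ± 1.32 (SD, n = 3) in control and 49.7 ± 5.51 in senescent MAFs (exact permutation p = 0.1, adjusted p = 0.278), and 18.4% of the regions called in all 6 had no overlap in this direction. As a percentage of the list the difference was gone: 1.25, 1.12 and 0.349 in control against 1.30, 0.510 and 0.871 in senescent MAFs, with means of 0.907 ± 0.488% and 0.895 ± 0.397% (exact permutation p = 1). The direction of the difference at Bhlhe40 therefore rests on the scale: among regions called in all 6 libraries it ranked 31, 32.5 and 32 in control and 53, 49 and 43 in senescent MAFs, a ratio of 0.661. No overlap in this direction was seen in 17.8% of these regions, and 81% of them had a larger ratio.

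The promoter peak of Bhlhe40 was called as 2, 1 and 2 peaks in control and as 1 peak in each senescent library (exact permutation p = 0.4). It covered 1277, 1514 and 1588 bases in control and 1681, 1925 and 1790 bases in senescent MAFs. The senescent peaks were wider in every library (exact permutation p = 0.1, adjusted p = 0.301), as at Bhlhe41 and against the same 29.7% of regions, although the rank did not improve. Here 1277 bases were called in all 6 libraries and 119 in every senescent but no control library.

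The downstream region of Bhlhe40 ranked well behind its promoter in every list. Its peaks ranked 865.5, 1320.5 and 494 in control and 488, 962.5 and 1057 in senescent MAFs. As a percentage of the list the values were 31.0, 39.4 and 4.66 in control and 11.6, 9.82 and 20.9 in senescent MAFs, and the groups overlapped (exact permutation p = 0.4, adjusted p = 0.702). The peaks were narrow, 219 to 688 bp, their midpoints lay 1420 to 1730 bp past the end of the gene, and only 41 bases were covered in all 6 libraries.

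**Figure D3:**
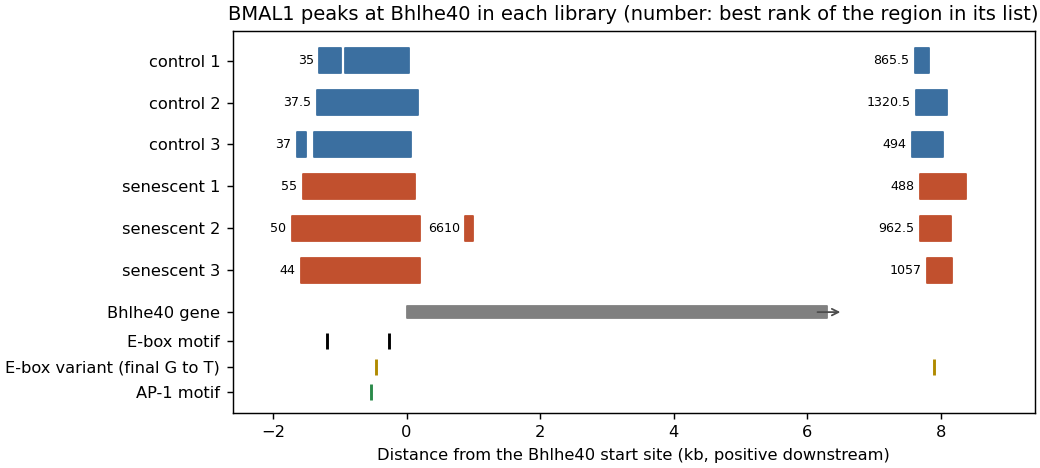
BMAL1 peaks at Bhlhe40 within the plotted span. Bars are the peaks of each of the 6 libraries by distance from the start site in kb, positive downstream, with the best rank of each region beside them; blue bars are control, red bars senescent, the grey bar is the gene, and ticks mark motifs. The promoter ranked 35 to 55 in every library and the region past the gene end 488 to 1320.5.

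The other 5 regions of Bhlhe40 were called in few libraries. Regions at chr6:108537035-108537258 and chr6:108570359-108570657 were each called in control 3 and in senescent 1 and 2, a pattern shared by 3.75% of all regions. The first lies in an intron of Itpr1, the gene of an inositol trisphosphate receptor that releases calcium, and the second is intergenic. Regions at chr6:108448495-108448623, chr6:108571019-108571234 and chr6:108661506-108661629 were called in 1 senescent library each, as 55.7% of all regions were called in 1 library. Of these, the first lies in Itpr1 and holds an AP-1 motif, the second is intergenic and holds a CACGTG, and the third lies over coding sequence of Bhlhe40. No peak in these 5 regions ranked better than 2663.5 in its list, and the libraries with these extra peaks were the longest lists and senescent 1. As a percentage of the list these peaks stood at 35.1 to 89.0. The downstream region stood within that range in control 2, at 39.4.

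Counted per gene, Bhlhe40 had 3, 2 and 5 peaks in control and 5, 6 and 2 in senescent MAFs, and Bhlhe41 had 5, 4 and 3 in control and 2, 2 and 3 in senescent MAFs. Neither count differed beyond the spread between libraries (exact permutation p = 0.8 for Bhlhe40 and 0.2 for Bhlhe41, adjusted p = 1 for both). For comparison, 1.84% of the 7947 genes with a peak had fewer peaks in every senescent library and 5.12% had more. All peaks of Bhlhe40 together covered 1496, 1977 and 2347 bases in control and 2965, 2888 and 2164 in senescent MAFs. Those of Bhlhe41 covered 2147, 2153 and 3139 bases in control and 2938, 3380 and 3195 in senescent MAFs. The groups overlapped at both genes (exact permutation p = 0.2 for each).

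The pair could be compared within a library, where list length and depth are shared. The best peak of Bhlhe40 had a higher rank number, and thus a weaker call, than that of Bhlhe41 in 6 of 6 libraries. The ratio of the Bhlhe40 rank to the Bhlhe41 rank was 1.52, 2.21 and 2.47 in control and 5, 5 and 4.40 in senescent MAFs, with a geometric mean of 3.11. An exact sign-flip test over the 6 libraries, two-sided, gave p = 0.03125, the smallest value it can give. This order holds for the rule used here; when start sites of all gene types count, the downstream peaks of both genes are assigned to other gene models, those of Bhlhe41 to Gm43909, and the order turns (ratio on the log10 scale -0.92 in place of 0.49). The ratio was larger in each senescent library than in each control library, with geometric means of 4.79 and 2.02 (exact permutation p = 0.1, the smallest possible). This follows from the rank numbers of the genes, which did not overlap between the groups and differed in opposite directions. It is therefore no further result, and the share of gene pairs with such a ratio was not computed.

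Promoter and downstream calls of the same gene were also set against each other. At Bhlhe41 the promoter rank was 18.7, 34.2 and 58.8 times the downstream rank in control and 16.3, 23.3 and 19.9 times in senescent MAFs. At Bhlhe40 it was 0.0404, 0.0284 and 0.0749 times the downstream rank in control and 0.113, 0.0519 and 0.0416 times in senescent MAFs. The opposite layout of the genes was thus present in all 6 libraries, and the ratio did not differ between groups beyond the spread (exact permutation p = 0.3 for Bhlhe41 and 0.4 for Bhlhe40).

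Among other genes of the clock, the DEC genes stood in the lower part of the strongly bound group. Of 21 further clock genes, 11 had a peak in all 6 libraries, 7 in some and 3 (Clock, Npas2 and Csnk1d) in none. Among all 21840 protein-coding genes, 5.14% had a peak in all 6 libraries and 7947 genes had one in any library. Ordered by the geometric mean of the rank percentage, Bhlhe41 was at place 9 and Bhlhe40 at place 13 of the clock genes reported here with a peak in every library, the DEC genes included. Over all 1123 genes with a peak in every library they were at places 10 and 34. Above both came Ciart, Per1, Per2, Dbp, Nr1d2, Tef, Nr1d1 and Cry1, mostly repressors and output factors driven by E-boxes. The place of Bhlhe41 rests on its downstream peak, as do its neighbours and most alike genes given below. When start sites of all gene types count, that peak goes to Gm43909. The best rank of Bhlhe41 then had means of 13.7% in control and 3.52% in senescent MAFs. With the rule used here these means were 0.491% and 0.187%.

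The neighbours of Bhlhe41 in this order were the cryptochromes, the repressors that act with the PER proteins. Cry1 ranked 11 to 17 and Cry2 14 to 21, beside 10 to 23 for Bhlhe41. Neither differed from Bhlhe41 beyond the spread over the 6 libraries (exact sign-flip p = 0.6875 for Cry1, and 0.09375, adjusted 0.141 over 3 pairs, for Cry2). Next above Bhlhe40 was Hlf, an output factor of the PAR bZIP family, with ranks of 12 to 38. Bhlhe40 had a weaker call than Hlf in 5 of 6 libraries, and the difference did not pass (exact sign-flip p = 0.0625, adjusted p = 0.141). All 3 neighbours were picked because their ranks were closest in this order. The tests on these same ranks therefore cannot show likeness.

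**Figure D4:**
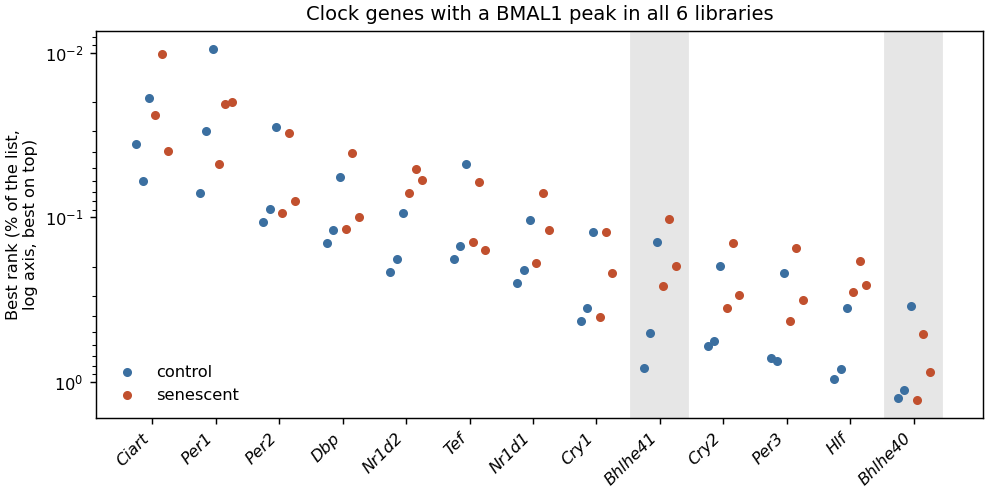
Clock genes with a BMAL1 peak in every library. Points are single libraries, control in blue and senescent in red; the vertical axis is the rank of the gene's best peak as a percentage of its list, on a log scale with stronger calls towards the top, and genes are in order of their geometric mean. Bhlhe41 sits between Cry1 and Cry2 and Bhlhe40 next to Hlf.

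Rank percentages of these 11 clock genes were compared between groups in the same way. Every senescent library was lower, and thus stronger, than every control library at 2 of them, Nr1d2 (REV-ERBβ) and Hlf, and higher at 0. Over all 1123 genes these shares were 13.4% and 5.52%. Neither Bhlhe40 nor Bhlhe41 separated the groups on this scale when the best peak of the whole gene was used (exact permutation p = 1 and p = 0.3, adjusted p = 1 and 0.689). The best peak of Bhlhe41 is the downstream one, whose groups did not overlap by rank number but did as a percentage of the list.

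The closest relatives of the DEC genes by protein family, the Hes and Hey genes with Helt, are repressors best known from Notch signalling and development. Of 10 such genes, 2 had a peak in all 6 libraries, 2 in some and 6 in none. For comparison, of all 21840 protein-coding genes 1123 (5.14%) had a peak in all 6 libraries and 7947 in any library. The counts for this family are small and were not tested against these shares. Hes1, a target of Notch, ranked 165 to 409 and Hes7, a gene of the segmentation clock of the embryo, 412.5 to 2013. Both stood behind Bhlhe40 and Bhlhe41 in each library.

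The genes whose ranks across the 6 libraries were most like those of each DEC gene were found by the Euclidean distance of log10 rank percentages. For Bhlhe41 they were Nptn, Cry2, Cry1, Ap5s1 and Per3, at distances of 0.258 to 0.430, and 3 of the 5 were clock repressors. Of all 1123 genes compared, 11 besides the DEC genes were on the clock list. Cry1, Cry2 and Per3 stood at places 9, 12 and 14 of these genes, beside place 10 for Bhlhe41. Clock genes hold most of the first places in that order, so the count reflects level and is not particular to Bhlhe41. For Bhlhe40 they were Napa, Adh5, Kdm6b, Actbl2 and Tsc22d3, at distances of 0.168 to 0.323, and 0 of the 5 were on the clock list. Tsc22d3 encodes GILZ, a leucine zipper protein induced by glucocorticoids such as dexamethasone, and Kdm6b a histone H3K27 demethylase. The points share their libraries and list lengths, so the distances describe likeness in level and carry no test.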

How the data were processed

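Fibroblast chromatin was cross-linked, precipitated with an anti-BMAL1 antibody and tagmented with Tn5 on the beads; the labels and the study's methods name antibodies of different suppliers. The authors aligned reads with BWA to mm10, used Picard MarkDuplicates against duplicates, and ran MACS2 in the HiChIP pipeline on every library by itself, without pooling, at an FDR of 1%. The MACS2 version and the use of input as control are not given in the sources used here. All 6 file headers name the same sequencing lane. The deposited peak scores were taken for −log10 q-values. The files do not state this unit; it was inferred from the minimum of the lists, 2.02 to 2.12, which is where an FDR of 1% falls. It grows with depth and enrichment and was used only within a list.

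Groups came from the sample titles. Peaks were assigned by midpoint to the nearest start site of a protein-coding transcript (GENCODE M21, GRCm38; 0 peaks ran past a chromosome end), so distance, not contact, defines the gene. Tied scores shared a mean rank. The E-box, its 3 variants and the AP-1 motif were exact matches on both strands. The RefSeq promoter table held 1 of the 2 genes. Group means were compared by two-sided exact permutation over 20 arrangements, adjusted by Benjamini-Hochberg over all genes or regions tested, and ratios within libraries by exact sign flips; with 3 libraries a group p cannot fall below 0.1. The tests were tested on simulated data. The members, gene lists and tests were chosen with earlier results of these data known, and the analysis of single regions was added after their values were seen. Named genes were the DEC genes with all their regions, the genes that border them, their neighbours in the order of the clock genes, and the 5 genes most like each; the clock and family genes named beyond this (those with no peak, those ranked above both, those without overlap and Hes1 and Hes7) were chosen after their values were seen. An item of the clock list is not reported here. The read-based differential test of the study needs reads and was not repeated. Alternatives were equal list length, peaks above the median score, ranks among shared regions, 50% overlap, start sites of all gene types, a 50000 bp limit, other motif windows, a replicate block and leaving out each library. Python 3.11.15, NumPy 2.4.6, pandas 2.3.3 and SciPy 1.17.1 were used.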

Additional observations from a re-analysis of the deposited data

How the results depend on the processing

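Values here are senescent minus control. The order of the DEC genes within libraries was 0.49 (log10 rank ratio) and turned to -0.92 when start sites of all gene types counted; leaving out 1 library gave 0.45 to 0.56 at an exact sign-flip p = 0.0625, the smallest 5 libraries allow. The rank percentage of Bhlhe40, and of its promoter region, differed by -0.0125 and turned to 0.471 with equal list length and to 1.49 among regions called in all 6 libraries (exact permutation p = 0.1 for both); leaving out 1 library gave -0.292 to 0.180, positive without control 1, control 2 or senescent 2. Peaks per library at Bhlhe40 differed by 1.00 and turned to -0.667 for peaks above the median score, to -0.667 with all gene types and to -0.333 within 50000 bp; without single libraries it ran from 0.167 (senescent 2) to 2.17 (senescent 3), with 0.333 without control 2 and 1.83 without control 3. Regions with an E-box within 100 bp of the best midpoint rose from 1 to 2 at Bhlhe40 with the 3 variants or over the whole region; at Bhlhe41 they went from 1 to 2 over the whole region and to 0 within 50 bp. The Bhlhe41 promoter kept its direction, from -10.2 to -15.3 with equal list length, -20.4 above the median score and -28.6 among shared regions, and from -12.9 to -8.35 with 1 library left out. Equal list length, the median score and shared regions each give percentages of a different total, here and for Bhlhe40. Between these settings only the direction can be compared, not the size. Of the differences recomputed with a library left out, 78 kept their direction and 6 turned. A further 6, those of the order within libraries, kept it with a weaker test. Under other settings 57 kept their direction and 8 turned. Some of these repeat each other, since the best rank of a gene is that of 1 of its regions. Others could not turn or hardly so. A replicate block leaves a difference of group means unchanged, and the 50000 bp limit left the best rank of each DEC gene as it was. The cut at the median score does little more than rescale rank percentages. The counts are therefore no measure of how stable the differences are. With 3 libraries or fewer a group no group difference could pass 0.05, so this says nothing of significance. Same-numbered libraries did not deviate together (r = 0.0755, -0.0507 and -0.0177 over 1106 regions). The ranks thus showed no pairing by number, but they cannot exclude a shared animal or culture. With a replicate block the Bhlhe41 promoter differed by -10.2 (exact sign-flip p = 0.25, the smallest for 3 pairs). A block could therefore move no group comparison past 0.05. Without reads, depth limits every missing call.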
